A study of Mus musculus with 6 samples.

Results

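The genes described here encode proteins of immune cells and of antigen presentation, and they were followed in dorsal root ganglia (DRGs) of mice that lack the transcription factor Tlx3 in nociceptors. They were chosen as a list of 43 symbols, namely 14 macrophage genes, 4 Fc receptor genes, 4 complement genes, 5 genes of MHC class II, 5 genes of MHC class I, 2 chemokine genes, 4 lymphocyte genes, 2 neutrophil genes and 3 interferon-induced genes. All 43 were found among the 47937 genes and loci of the deposited table of counts, and 42 of them reached 10 counts when the 6 libraries were added up, as did 20006 of all genes. Cd8a, which encodes a coreceptor of cytotoxic T cells, had 4 counts in control replicate 1 and 0 in the other libraries and was not tested.

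Whole DRGs of cervical, thoracic and lumbar levels were taken from 3 control and 3 Tlx3cko mice of the C57BL/6 strain at about 2 months of age, and their total RNA was sequenced. The Tlx3cko mice have the genotype Tlx3f/f;SNS-cre, in which a Cre recombinase under Nav1.8 (SNS) control removes the floxed Tlx3 alleles from most nociceptors. The control mice are labelled wild type, whereas the study's methods call them controls, and for the behavioural experiments of the study name Tlx3F/F littermates. No other allele or treatment is given for either group. The libraries held 13761480, 15006871 and 18775628 counts in control replicates 1 to 3, in that order, and 15535247, 11458299 and 15303922 in Tlx3cko replicates 1 to 3. Values below are normalized counts, that is, counts scaled to a common library size of 14970767. Tlx3 itself had 1973, 2256 and 1941 normalized counts in controls against 1652, 1380 and 1452 in Tlx3cko mice, with every Tlx3cko value below every control value. Control replicates 1 and 2 had 591 and 493 counts on the female transcript Xist and 0 on the Y-linked gene Ddx3y, whereas control replicate 3 had 1 and 525. The Tlx3cko libraries had 2, 0 and 0 counts on Xist and 352, 273 and 390 on Ddx3y, so sex and genotype were not balanced. Control replicate 3 was therefore the only control of the same sex as the Tlx3cko mice, and values against it alone are given where a reported call was lost.

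Macrophages reside in sensory ganglia, where they lie against satellite glia and neuron cell bodies, take up debris and respond to nerve injury. Like dendritic cells and B cells they load peptides from engulfed proteins onto MHC class II molecules for CD4 T cells, whereas almost every nucleated cell displays peptides of its own proteins on MHC class I for CD8 T cells. Complement and Fc receptors link antibodies and tagged surfaces to uptake by these cells. In RNA of whole ganglia, fewer cells of a type and less RNA per cell cannot be told apart, and this holds for every result below.

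Most of these genes had lower values in Tlx3cko than in control DRGs, and antigen presentation genes made up most of those past the threshold. Of the 42 genes tested, 6 were lower in Tlx3cko DRGs at an adjusted p under 0.05 and 0 were higher (edgeR's quasi-likelihood test, Benjamini-Hochberg adjusted over all 20006 genes). The 6 are Ly86, H2-Ab1, Cd74, H2-Eb1, H2-K1 and H2-D1. Among all genes tested, 2.56% were lower and 1.69% were higher past this threshold, 4.25% in either direction. The log2 fold change was below 0 in 35 of the 42 genes, beside 50.7% of all genes. Against control replicate 3 alone it was below 0 in 27 of 41 genes tested, beside 49% of all genes in that fit. With all libraries the median of the 42 genes was -0.52, beside -0.004 over all genes tested, whose quartiles were -0.19 and 0.17. Against control replicate 3 alone the median of the listed genes was -0.38. In 13 of the 42 genes all Tlx3cko values lay below all control values, and in 0 all lay above, where 10.8% of all genes tested showed the first, 8.87% the second and 19.7% either. At an unadjusted p under 0.05 there were 16 of the 42 genes, beside 14.5% of all genes tested. The smallest p that an exact two-sided permutation test can reach for 1 gene with 3 mice per group is 0.1, so the p-values below come from the model fitted across all genes. Summed over all 43 genes, control replicates 1, 2 and 3 held 87.7%, 117% and 95.5% of the control mean, and Tlx3cko replicates 1, 2 and 3 held 74.1%, 54.1% and 67.7%. The sums did not overlap, with the highest in control replicate 2 and the lowest in Tlx3cko replicate 2. The 10 listed MHC genes held 10445 of the control mean of 15529 normalized counts, so these sums mostly follow those genes.

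**Figure D1:**
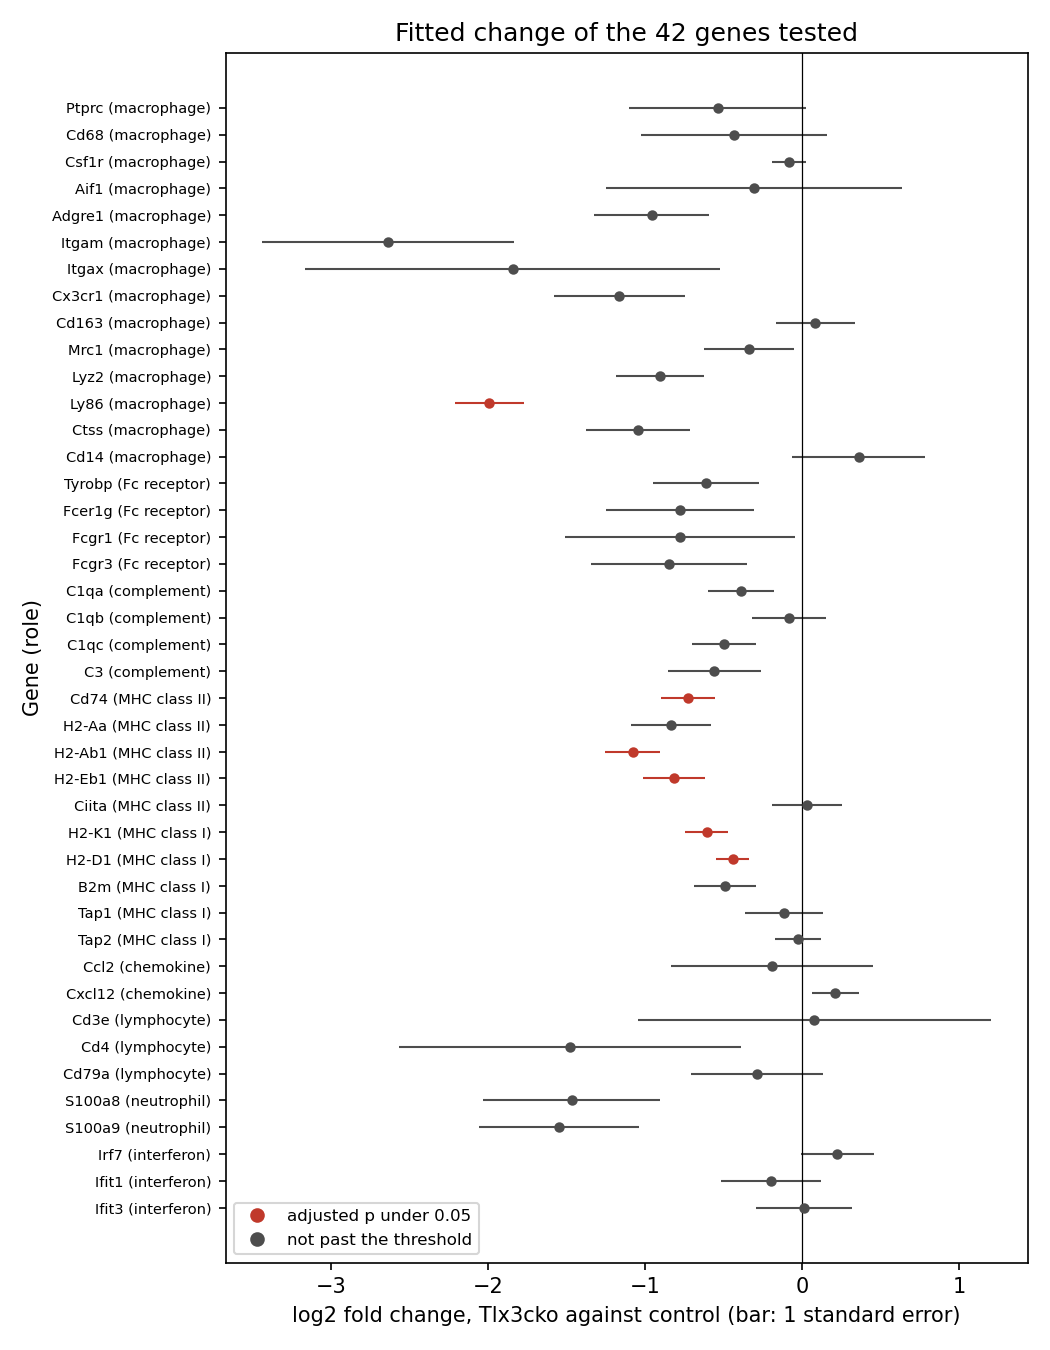
Fitted log2 fold change of each of the 42 genes tested (x axis, Tlx3cko against control, 3 libraries each), with genes on the y axis by role. Bars show 1 standard error, derived from the test statistic. Points in red are the 6 genes with an adjusted p under 0.05; 35 of the 42 points lie below 0.

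Genes of MHC class II were lower in Tlx3cko DRGs in 3 of 5 cases past the threshold, with a median log2 fold change of -0.81 over the 5. H2-Ab1 encodes the beta chain of the I-A molecule and is annotated on chromosome 17 (ENSMUSG00000073421, GRCm38, 34257689 to 34269419, plus strand). It had 658, 1074 and 643 normalized counts in control replicates 1, 2 and 3 and 409, 352 and 360.2 in Tlx3cko replicates 1, 2 and 3. Every Tlx3cko library was below every control, the 3 Tlx3cko values lay close together, and control replicate 2 stood above the other controls. The means were 792 ± 245 in control and 374 ± 31.0 in Tlx3cko DRGs (SD, n = 3 each), and the log2 ratio fitted to the counts was -1.08 (standard error, SE, 0.18, adjusted p = 0.00291 by edgeR's quasi-likelihood test, Benjamini-Hochberg adjusted).

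Cd74 encodes the invariant chain, which fills the peptide groove of class II molecules until they reach the endosome. Its normalized counts were 682, 1079 and 745 in controls against 567, 400.2 and 539 in Tlx3cko mice. The groups did not overlap, and Tlx3cko replicate 2 was the lowest. Its log2 fold change was -0.73 (SE 0.17, adjusted p = 0.0286 in the same edgeR test), with 60.1% of the control mean left. H2-Eb1, which encodes the beta chain of the I-E molecule (ENSMUSG00000060586, chromosome 17, 34305867 to 34316674, plus strand), had 488, 817 and 555 normalized counts in controls against 447.5, 283 and 322 in Tlx3cko mice. Here Tlx3cko replicate 1 came close to control replicate 1 without reaching it. The fitted change of H2-Eb1 was -0.81 (SE 0.20, adjusted p = 0.0341 in the same edgeR test). In C57BL/6 mice the I-E alpha gene is disrupted, and its remnant H2-Ea-ps had 0 counts in all 6 libraries.

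H2-Aa, which encodes the alpha chain that pairs with the H2-Ab1 product, had 227, 455 and 252 normalized counts in controls against 209, 122 and 188 in Tlx3cko mice. The groups did not overlap, but the log2 fold change of -0.84 (SE 0.26) did not pass the threshold (adjusted p = 0.101 by edgeR's quasi-likelihood test, Benjamini-Hochberg adjusted). Ciita encodes the coactivator that switches on class II transcription. Its values were 71.2, 60.8 and 67.8 normalized counts in controls against 62.6, 64.3 and 76.8 in Tlx3cko mice, so the groups overlapped. Its log2 fold change was 0.03 with an SE of 0.22. Per kilobase of exon, Cd74 was the most abundant class II gene in control DRGs (498 normalized counts per kb), followed by H2-Eb1 (319), H2-Ab1 (308), H2-Aa (81.9) and Ciita (6.99).

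Of 10 further class II genes, 7 were tested and 0 passed the threshold in either direction (edgeR). None of the 7 had an unadjusted p under 0.05, and the same 10 genes are part of the counts of other tools given for all related genes further on. They hold the peptide loading genes H2-DMa, H2-DMb1, H2-DMb2 and H2-Ob and the promoter-binding subunits Rfx5, Rfxap and Rfxank. H2-DMb1, which shares 14.2% of its longest transcript with H2-DMb2, had the smallest p of the 7, with 52.9, 47.9 and 27.1 normalized counts in controls against 57.7, 61.7 and 64.0 in Tlx3cko mice. Every Tlx3cko value was above every control, without passing the threshold (log2 fold change 0.53, SE 0.29, adjusted p = 0.459 by edgeR's quasi-likelihood test, Benjamini-Hochberg adjusted). Rfxank was the most abundant per kb (414 normalized counts per kb in control DRGs), although 35.0% of its longest transcript is shared with Nr2c2ap. H2-Eb2 had 0 counts in all 6 libraries.

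Genes of MHC class I were lower past the threshold in 2 of 5 cases, with a median log2 fold change of -0.44. H2-K1 encodes a classical class I heavy chain and is annotated on chromosome 17 (ENSMUSG00000061232, 33996017 to 34000347, minus strand). It had 1847, 2058 and 1962 normalized counts in control replicates 1, 2 and 3 and 1607, 985.5 and 1243 in Tlx3cko replicates 1, 2 and 3. The controls lay close together, and the Tlx3cko libraries were all below them and more spread, with replicate 2 the lowest. The means of 1956 ± 105 and 1279 ± 312 (SD, n = 3 each) gave a log2 fold change of -0.61 (SE 0.14, adjusted p = 0.0229 by edgeR's quasi-likelihood test, Benjamini-Hochberg adjusted).

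H2-D1, the other classical heavy chain gene tested (ENSMUSG00000073411, chromosome 17, 35262730 to 35267499, plus strand), had 3589, 4200 and 4154 normalized counts in controls against 3410, 2522 and 2841 in Tlx3cko mice. Tlx3cko replicate 1 was just below control replicate 1, and the other Tlx3cko libraries were further down. H2-D1 had a log2 fold change of -0.44 (SE 0.11, adjusted p = 0.0313 in the same edgeR test), with 73.5% of the control mean left. Class I genes form a family of similar sequences, and neither H2-K1 nor H2-D1 shared a stretch of 100 bases at 98% identity with a transcript of another gene. B2m encodes the light chain shared by all class I molecules. It had 879, 1389 and 1411 normalized counts in controls against 1012, 599.7 and 1001 in Tlx3cko mice, and Tlx3cko replicates 1 and 3 were above control replicate 1. Its log2 fold change of -0.49 (SE 0.20) did not pass the threshold (adjusted p = 0.252 in the same edgeR test).

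Tap1 and Tap2 encode the subunits of the transporter that brings peptides into the endoplasmic reticulum. Tap1 had 148, 238 and 134 normalized counts in controls against 214, 126 and 137 in Tlx3cko mice, with overlap between the groups and a log2 fold change of -0.12 (SE 0.25). Tap2 had 434, 575.5 and 443 in controls against 564, 421 and 435 in Tlx3cko mice, and its log2 fold change was -0.03 (SE 0.15). Against control replicate 3 alone both were above 0, at 0.25 for Tap1 and 0.10 for Tap2. The annotation places genes on the other strand over 18.5% of the exonic bases of Tap2, and their reads cannot be told apart where counting ignored strand. Per kilobase of exon H2-D1 was the most abundant of all 43 genes in control DRGs (1544 normalized counts per kb), followed by B2m (1426) and H2-K1 (666).

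Among 16 further class I genes, all tested, 0 passed the threshold in edgeR and 2 had an unadjusted p under 0.05. The log2 fold change was below 0 in 15 of them. Tapbp, which encodes the tapasin that holds class I molecules at the peptide transporter, had the smallest p (log2 fold change -0.25, adjusted p = 0.166 by edgeR's quasi-likelihood test, Benjamini-Hochberg adjusted). The chaperone gene Calr was the most abundant per kb, with 1290 normalized counts per kb in control DRGs and a log2 fold change of -0.02. Summed over the 5 class I genes of the list, control replicates held 88.2%, 108% and 104% of the control mean and Tlx3cko replicates 87.1%, 59.5% and 72.3%. For the 5 class II genes the sums were 81.0%, 133% and 86.2% in control and 64.6%, 46.5% and 56.6% in Tlx3cko libraries. In both sums Tlx3cko replicate 2 was the lowest library and no Tlx3cko library reached a control, although Tlx3cko replicate 1 came near control replicate 1 for class I.

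Of the 5 antigen presentation genes past the threshold, 4 lost their call in fits with fewer libraries, while their log2 fold changes kept their sign. H2-Ab1 stayed past the threshold in all 14 alternatives tried, with log2 fold changes between -1.21 and -0.78 and adjusted p between 1.3e-16 and 0.0232. Cd74 lost its call without control replicate 2 (adjusted p = 0.121), without Tlx3cko replicate 2 (0.147), without Tlx3cko replicate 3 (0.0651) and against control replicate 3 alone (0.179), all by edgeR's quasi-likelihood test, Benjamini-Hochberg adjusted. H2-Eb1 lost it in the same 4 fits (0.154, 0.17, 0.132 and 0.201) and without control replicate 3 (0.0562). H2-K1 lost it in these 5 fits too, with adjusted p of 0.0959, 0.0843, 0.0908, 0.18 and 0.0702 in that order in the same edgeR test. For H2-D1 they were 0.127, 0.177, 0.129, 0.107 and 0.108 in the same edgeR test. Over the 14 alternatives, other tools and no filter included, the adjusted p ranged from 2.31e-08 to 0.179 for Cd74, from 1.5e-08 to 0.201 for H2-Eb1, from 7.14e-09 to 0.18 for H2-K1 and from 1.26e-05 to 0.177 for H2-D1. The log2 fold changes over these alternatives were -0.86 to -0.50 for Cd74, -1.03 to -0.57 for H2-Eb1, -0.81 to -0.45 for H2-K1 and -0.57 to -0.34 for H2-D1. Against control replicate 3 alone they were -0.57, -0.66, -0.62 and -0.51 in that order. H2-Aa and B2m passed the threshold without control replicate 1 (adjusted p = 0.044 and 0.0476 in the same edgeR test) and without the filter, and H2-Aa also passed in DESeq2 with all libraries (adjusted p = 0.0177), where the ranges over the alternatives were 2.01e-05 to 0.476 and 7.56e-05 to 0.639.

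**Figure D2:**
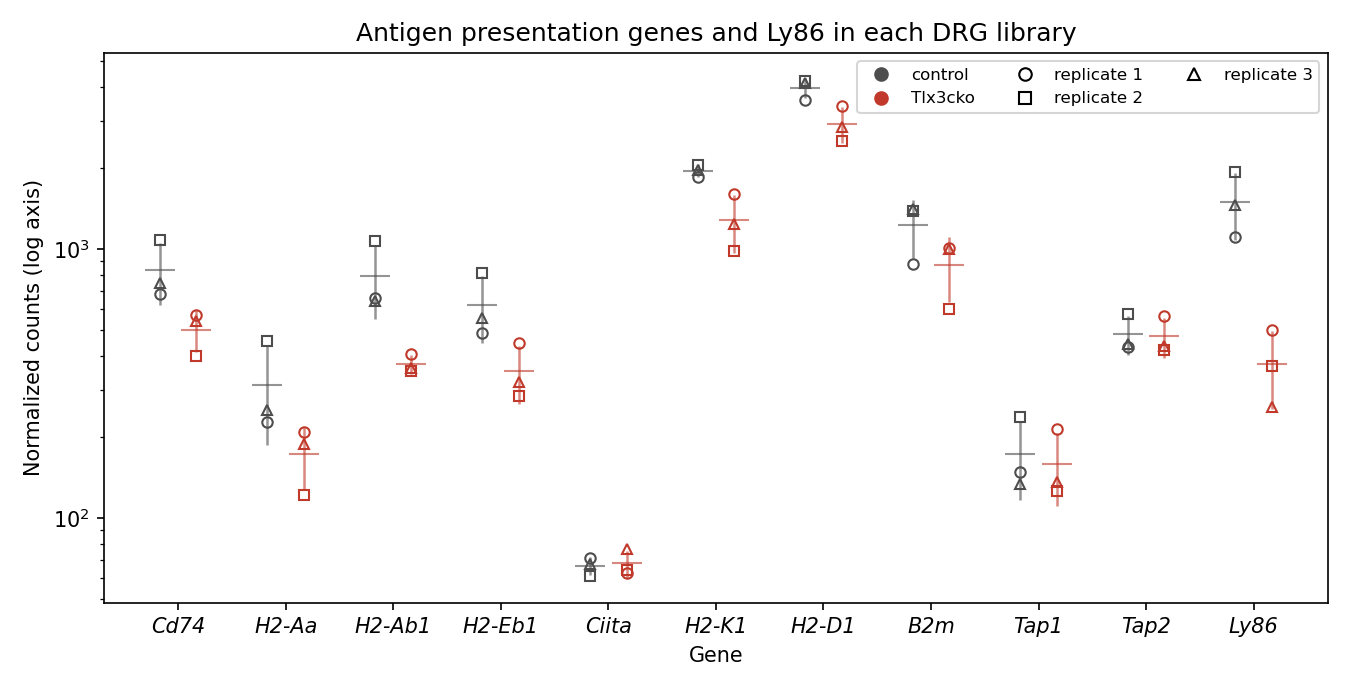
Normalized counts (y axis, log axis) of 10 antigen presentation genes and Ly86 (x axis) in each control and Tlx3cko library, with 1 symbol per replicate and a bar at the mean with the SD (n = 3). The Tlx3cko libraries lie below all controls for Cd74, H2-Aa, H2-Ab1, H2-Eb1, H2-K1, H2-D1 and Ly86, and overlap them for Ciita, B2m, Tap1 and Tap2.

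Because the genes past the threshold included both class I and class II genes, start regions from both are shown, from the RefSeq promoter table of GRCm38.p6, which spans 250 bases before to 50 after each start. Of the 43 genes 32 had an entry, and none was listed for Csf1r, Adgre1, Cd14, Tyrobp, C1qa, Cd74, H2-Ab1, Ciita, Tap2, Ccl2 and Cd4. The κB motif known from class I promoters, the 11 bases in capitals in the class I stretches shown here, was searched on both strands and found in 9 of 27025 genes with an entry (0.0333%), among them H2-K1, H2-D1 and the related gene H2-Q6. In H2-K1 it starts 111 bases before the upstream of 2 listed starts, and the stretch shown is chr17:34000349-34000478 on the minus strand, before the first annotated base of the gene. In H2-D1 it starts 171 bases before the RefSeq start, at chr17:35262914-35262943 on the plus strand with its neighbouring bases. GENCODE places the first exon of 1 H2-D1 transcript over it. Over 130 bases aligned at the motif without gaps, 118 (90.8%) were identical in the 2 genes. Capitals mark the motif.
H2-K1: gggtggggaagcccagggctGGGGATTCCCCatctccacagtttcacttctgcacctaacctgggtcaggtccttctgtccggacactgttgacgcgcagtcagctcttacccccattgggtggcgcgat
H2-D1: cccagggctGGGGATTCCCCatctcctcag

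The Y box of class II promoters, a binding sequence of the factor NF-Y, was searched as CTGATTGG on both strands. It was present in 1271 of the 27025 genes (4.7%) and in 5 of the 32 genes of the list with an entry, namely H2-Eb1, H2-Aa, H2-K1, H2-D1 and Tap1. The motif did not overlap the κB motif in any of them. It starts 62 bases before the start of H2-Eb1 and 51 bases before that of H2-Aa, and these are shown to set a class II gene past the threshold beside one that missed it in edgeR. The stretches lie on chromosome 17, at chr17:34305745-34305832 on the plus strand for H2-Eb1 and chr17:34287847-34287934 on the minus strand for H2-Aa, both upstream of the annotated gene. Capitals mark the Y box. A match describes these letters only, not a site in use or a cause.
H2-Eb1: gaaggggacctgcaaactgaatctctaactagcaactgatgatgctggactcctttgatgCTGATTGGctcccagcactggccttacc
H2-Aa: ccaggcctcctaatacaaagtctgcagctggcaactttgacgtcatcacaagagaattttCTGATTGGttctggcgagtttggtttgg

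Among the 14 macrophage genes, 1 was lower past the threshold, and the median log2 fold change was -0.72. That gene was Ly86, whose product MD-1 pairs with the Toll-like receptor relative RP105 (ENSMUSG00000021423, chromosome 13, 37345208 to 37419036, plus strand). It had 1105, 1928 and 1457 normalized counts in control replicates 1, 2 and 3 and 500.5, 366 and 259.8 in Tlx3cko replicates 1, 2 and 3. Every Tlx3cko library held less than the lowest control, with no value between 500.5 and 1105. The means were 1497 ± 413 in control and 375.5 ± 121 in Tlx3cko DRGs (SD, n = 3 each), so 25.1% of the control level was left. The log2 fold change was -1.99 (SE 0.22, adjusted p = 0.000137 by edgeR's quasi-likelihood test, Benjamini-Hochberg adjusted). Ly86 stayed past the threshold in all 14 alternatives, with adjusted p from 1.75e-69 to 0.00196 and log2 fold changes from -2.27 to -1.77. Per kb it held 412 normalized counts in control DRGs, where the macrophage growth factor receptor gene Csf1r held 89.1, the pan-leukocyte gene Ptprc 2.24 and the macrophage gene Adgre1 13.8. Which cells of the ganglion hold the Ly86 transcripts was not tested, so its change cannot be assigned to macrophages.

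Csf1r, on which most tissue macrophages depend for survival, had 525, 536 and 483 normalized counts in controls against 450.4, 519.6 and 487 in Tlx3cko mice. The groups overlapped, and the replicates were close. Its change was -0.08 (SE 0.11, adjusted p = 0.816 by edgeR's quasi-likelihood test, Benjamini-Hochberg adjusted). Of its exonic bases 15.1% lie under Hmgxb3 on the other strand, so some of these reads may belong to that gene. Cd163 and Mrc1, scavenger and mannose receptors of resident macrophages, also overlapped between the groups. Cd163 had 85.3, 62.8 and 82.2 normalized counts in controls against 61.6, 74.8 and 107 in Tlx3cko mice (log2 fold change 0.08, SE 0.25), and Mrc1 gave -0.34 (SE 0.29).

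Other macrophage genes had lower values without passing the threshold. Adgre1, which encodes the surface protein F4/80, had 60.4, 34.9 and 39.1 normalized counts in controls against 27.9, 13.1 and 26.6 in Tlx3cko mice. Cx3cr1, the fractalkine receptor gene, had 33.5, 47.9 and 26.3 in controls against 10.6, 13.1 and 23.6 in Tlx3cko mice. In both genes all Tlx3cko values were below all controls, with log2 fold changes of -0.96 (SE 0.37) and -1.17 (SE 0.42). The adjusted p were 0.224 for Adgre1 and 0.177 for Cx3cr1 (edgeR's quasi-likelihood test, Benjamini-Hochberg adjusted). Ctss encodes cathepsin S, the protease that trims the invariant chain. It had 69.1, 129 and 52.6 normalized counts in controls against 34.6, 48.6 and 38.4 in Tlx3cko mice, without overlap (log2 fold change -1.04, SE 0.33, adjusted p = 0.118 in the same edgeR test). Ctss passed the threshold without the filter (adjusted p = 0.00885 in the same edgeR test). Over the alternatives its log2 fold change was between -1.30 and -0.39, the latter against control replicate 3 alone.

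Itgam, the CD11b gene of macrophages and neutrophils, had 19, 31 and 5 counts in controls against 4, 2 and 2 in Tlx3cko mice. Control replicate 3 was thus nearer to the Tlx3cko libraries than to the other controls, although the groups did not overlap. Its log2 fold change of -2.64 had an SE of 0.80 (adjusted p = 0.0984 by edgeR's quasi-likelihood test, Benjamini-Hochberg adjusted), and without control replicate 3 the adjusted p was 0.0236 (range over the alternatives 0.011 to 0.94). Against control replicate 3 alone the log2 fold change of Itgam was -0.48. All values of Itgam are uncertain, because 68.7% of its exonic bases also belong to Gm49368 on the same strand. Itgax, the CD11c gene of dendritic cells, had 1, 5 and 3 counts in controls against 2, 0 and 0 in Tlx3cko mice, and a difference was not detectable at this depth. Aif1, which encodes the microglial protein Iba1, had at most 14 counts in any library and none in Tlx3cko replicate 3.

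Lyz2, the lysozyme gene of macrophages and neutrophils, had 784, 1164 and 585 normalized counts in controls against 335, 314 and 692 in Tlx3cko mice. Tlx3cko replicate 3 lay above control replicate 3, while Tlx3cko replicates 1 and 2 lay below all controls. Lyz2 had a log2 fold change of -0.91 (SE 0.28, adjusted p = 0.105 by edgeR's quasi-likelihood test, Benjamini-Hochberg adjusted), and without Tlx3cko replicate 3 it was -1.38 with an adjusted p of 0.00601 (range over the alternatives 1.37e-12 to 0.767). Against control replicate 3 alone the log2 fold change of Lyz2 was -0.38. Ptprc, the CD45 gene, had 60.4, 40.9 and 21.5 normalized counts in controls against 13.5, 10.5 and 58.1 in Tlx3cko mice. Cd68, a lysosomal protein gene of macrophages, had 15.1, 26.9 and 10.4 in controls against 7.70, 6.56 and 23.6 in Tlx3cko mice. In both genes Tlx3cko replicates 1 and 2 were the lowest libraries and Tlx3cko replicate 3 was among the highest. Cd14, the lipopolysaccharide coreceptor gene, had 22.7, 33.9 and 22.3 in controls against 16.4, 31.5 and 53.1 in Tlx3cko mice and the highest log2 fold change of the 42 genes, 0.36 (SE 0.43).

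Of 30 further macrophage genes, 28 were tested and 0 passed the threshold in edgeR, with 7 at an unadjusted p under 0.05. Apoe was the most abundant per kb (15892 normalized counts per kb in control DRGs), and satellite glia express it too.

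The Csf1 receptor has 2 ligands, of which Csf1 was higher past the threshold. It had 236, 186 and 200.2 normalized counts in control replicates 1, 2 and 3 and 361, 311 and 321 in Tlx3cko replicates 1, 2 and 3. Every Tlx3cko library was above every control. The fitted log2 change was 0.67 (SE 0.14, adjusted p = 0.0139 by edgeR's quasi-likelihood test, Benjamini-Hochberg adjusted). Il34, the other ligand and the more abundant per kb (204 against 39.3 normalized counts per kb in control DRGs), had 378, 420 and 399 in controls against 587, 504 and 492 in Tlx3cko mice. These did not overlap either, but the log2 fold change of 0.40 (SE 0.11) missed the threshold (adjusted p = 0.069 in the same edgeR test). The Csf1 call was lost without Tlx3cko replicate 1 (adjusted p = 0.0535), control replicate 2 (0.0599) or control replicate 3 (0.0532) and against control replicate 3 alone (0.0783), in a range of 0.000707 to 0.0783 over the alternatives, each of the 4 in the same edgeR test. The log2 fold changes in these 4 fits were 0.61, 0.61, 0.65 and 0.73.

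With all libraries the 4 Fc receptor genes had log2 fold changes between -0.85 and -0.61, and 0 passed the threshold in edgeR or DESeq2, with 0 at an unadjusted p under 0.05 in edgeR. Against control replicate 3 alone the sign turned for Fcer1g (0.29) and Fcgr1 (0.30) and held for Fcgr3 (-0.13) and Tyrobp (-0.46), and Fcgr1 was also above 0 without control replicate 2 (0.08). Tyrobp and Fcer1g encode the adaptors DAP12 and the FcR gamma chain, and Fcgr1 and Fcgr3 encode receptors for IgG. Tyrobp had 41.0, 42.9 and 35.9 normalized counts in controls against 31.8, 15.7 and 29.5 in Tlx3cko mice, without overlap (log2 fold change -0.61, SE 0.34, adjusted p = 0.465 by edgeR's quasi-likelihood test, Benjamini-Hochberg adjusted). Fcgr3 had 33.5, 39.9 and 18.3 in controls against 21.2, 5.25 and 22.6 in Tlx3cko mice, so control replicate 3 fell below Tlx3cko replicates 1 and 3. Fcer1g and Fcgr1 overlapped as well, with control replicate 3 below Tlx3cko replicates 1 and 3 in each. Of 6 further genes of this pathway, 1 was lower and 0 higher past the threshold. This was Syk, the kinase that these adaptors recruit, with 68.0, 74.8 and 98.1 normalized counts in controls against 27.9, 22.3 and 49.2 in Tlx3cko mice. The Tlx3cko values were all below the controls (log2 fold change -1.26, SE 0.31, adjusted p = 0.038 in the same edgeR test). Without control replicate 2, control replicate 3, Tlx3cko replicate 1 or Tlx3cko replicate 2 the adjusted p of Syk was 0.0915, 0.162, 0.114 and 0.155, and against control replicate 3 alone 0.104, each in the same edgeR test (range over the alternatives 0.00106 to 0.162). In these 5 fits the log2 fold changes of Syk were -1.31, -1.09, -1.14, -1.05 and -1.55. Fcgrt, the neonatal Fc receptor gene, was the most abundant of the 6 per kb (126 normalized counts per kb in control DRGs) and had a log2 fold change of 0.01.

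Complement genes of the list had log2 fold changes between -0.56 and -0.09, and 0 of 4 passed the threshold in edgeR or DESeq2, with 1 at an unadjusted p under 0.05 in edgeR. The sign turned for C3 against control replicate 3 alone (0.13) and for C1qb without Tlx3cko replicate 2 (0.12) or control replicate 3 (0.001). C1qa, C1qb and C1qc encode the chains of C1q, which starts the classical pathway, and C3 encodes its central component. C1qc had 137, 160 and 138 normalized counts in controls against 89.5, 85.3 and 132 in Tlx3cko mice, all below the controls (log2 fold change -0.50, SE 0.20, adjusted p = 0.27 by edgeR's quasi-likelihood test, Benjamini-Hochberg adjusted). C1qa had 155, 216 and 132 in controls against 123, 109 and 150 in Tlx3cko mice, and C1qb had 105, 118 and 132 in controls against 149, 76.1 and 106 in Tlx3cko mice. Both overlapped, so the 3 chains of a common protein were not separated alike. C3 had 136, 139 and 71.0 in controls against 73.1, 53.8 and 104 in Tlx3cko mice, with control replicate 3 below 2 of the Tlx3cko libraries.

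Genes for 3 proteins that restrain complement were lower in Tlx3cko DRGs. Among 15 further complement genes, 3 were lower and 0 higher past the threshold, and all 3 encode inhibitors. Cd55, decay accelerating factor, had 3711, 3781 and 4670 normalized counts in control replicates 1, 2 and 3 and 2130, 1837 and 2002 in Tlx3cko replicates 1, 2 and 3 (log2 fold change -1.03, SE 0.10, adjusted p = 4.68e-05 by edgeR's quasi-likelihood test, Benjamini-Hochberg adjusted). Cd59a, which blocks the membrane attack complex, had 1375, 1663 and 1603 in controls against 921, 811 and 848 in Tlx3cko mice (log2 fold change -0.85, SE 0.10, adjusted p = 0.000179 in the same edgeR test). Serping1, the C1 inhibitor gene, had 1427, 1526 and 1617 in controls against 1130, 875 and 900.5 in Tlx3cko mice (log2 fold change -0.65, SE 0.11, adjusted p = 0.00285 in the same edgeR test). In these 3 genes the highest Tlx3cko value was below the lowest control, and they stayed past the threshold in all 14 alternatives. Cd55 shares 15.4% of its longest transcript with Cd55b and Gm16083. The most abundant of the 15 per kb was Clu, which encodes clusterin, with 1467 normalized counts per kb in control DRGs and a log2 fold change of 0.25 (SE 0.07, adjusted p = 0.0846 in the same edgeR test).

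Fibroblast markers had lower values as well. All 6 had negative log2 fold changes, with 4 lower past the threshold, namely Col1a1, Col3a1, Dcn and Pdgfra. Summed over the 6 fibroblast genes, control replicates held 91.4%, 108% and 101% of the control mean and Tlx3cko replicates 74.8%, 72.0% and 77.7%. Dcn was the most abundant of them per kb, and none was at 0. Each of the 4 lost its call in some alternatives, without a change of sign. Col1a1 (log2 fold change -0.52, adjusted p = 0.0346 by edgeR's quasi-likelihood test, Benjamini-Hochberg adjusted) lost it without control replicate 2 (0.155) or 3 (0.103), without Tlx3cko replicate 1 (0.108) or 2 (0.139) and against control replicate 3 alone (0.128), in a range of 0.000128 to 0.155. Col3a1 (-0.78, adjusted p = 0.0163 in the same edgeR test) lost it without control replicate 2 (0.0893) or 3 (0.0764) and without Tlx3cko replicate 1 (0.0573) or 3 (0.0761), in a range of 1.28e-08 to 0.0893. For Dcn (-0.39, adjusted p = 0.0395 in the same edgeR test) this was so without control replicate 1 (0.112) or 2 (0.106), without Tlx3cko replicate 2 (0.201) or 3 (0.103) and against control replicate 3 alone (0.452), in a range of 0.000874 to 0.452. For Pdgfra (-0.79, adjusted p = 0.0354 in the same edgeR test) it was so without control replicate 1 (0.0981) or 3 (0.129), without Tlx3cko replicate 1 (0.062), 2 (0.103) or 3 (0.154), with the replicate number as a block (0.0561) and against control replicate 3 alone (0.0966), in a range of 0.00571 to 0.154. The log2 fold changes over the alternatives were -0.63 to -0.42 for Col1a1, -0.98 to -0.64 for Col3a1, -0.46 to -0.26 for Dcn and -0.92 to -0.71 for Pdgfra. The part of fibroblasts in the values of the complement and antigen presentation genes was not tested.

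The chemokine genes Ccl2 and Cxcl12 attract monocytes and lymphocytes. Cxcl12 had 212, 239 and 266 normalized counts in controls against 292, 304 and 236 in Tlx3cko mice, with overlap between the groups and a log2 fold change of 0.21 (SE 0.15). Ccl2 had 10, 12 and 10 counts in controls against 4, 12 and 8 in Tlx3cko mice, too few to show a difference (log2 fold change -0.19, SE 0.64). Of 26 further identifiers for chemokines and their receptors, 17 were tested and 0 passed the threshold in edgeR, with 5 at an unadjusted p under 0.05. The smallest p belonged to Cxcl1, a neutrophil attractant gene with 0 counts in all control libraries and 4, 1 and 6 in Tlx3cko libraries (adjusted p = 0.156 by edgeR's quasi-likelihood test, Benjamini-Hochberg adjusted). The chemokine scavenger gene Ackr1 was the most abundant per kb (642 normalized counts per kb in control DRGs) and had a log2 fold change of 0.01, with 25.7% of its exonic bases overlapped by Cadm3 on the same strand.

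The listed T cell genes had few counts. Cd3e, a subunit of the T cell receptor complex, had 1, 4 and 8 counts in controls against 0, 1 and 11 in Tlx3cko mice. Cd4, the coreceptor gene of helper T cells, had 1, 10 and 5 in controls against 3, 0 and 2 in Tlx3cko mice. Both overlapped between the groups, and a difference was not detectable at this depth. Of 20 further genes of T and natural killer cells, 13 had under 10 counts in total, and the defining T cell genes Cd3d and Trbc2 had 0 in all 6 libraries. None of the 7 tested passed the threshold in edgeR, with 0 at an unadjusted p under 0.05. Cd2 had the smallest p, with 4, 0 and 9 counts in controls against 0, 1 and 0 in Tlx3cko mice (adjusted p = 0.395 by edgeR's quasi-likelihood test, Benjamini-Hochberg adjusted). Cd247 was the most abundant per kb (42.2 normalized counts per kb in control DRGs), but 87.6% of its longest transcript is shared with Gm16565 and Pou2f1. A T cell content of these ganglia could therefore not be read from the counts.

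Cd79a, a B cell receptor subunit gene, had 59.4, 37.9 and 17.5 normalized counts in controls against 22.1, 36.7 and 34.4 in Tlx3cko mice, with overlap and a log2 fold change of -0.29 (SE 0.42). Of 14 further B cell genes, 10 were tested, of which 1 was lower and 1 higher past the threshold, and both are constant regions of immunoglobulin chains. Igkc, the kappa light chain gene and the most abundant of them per kb in control DRGs (83.6 normalized counts per kb), had 46, 44 and 50 counts in controls against 17, 0 and 6 in Tlx3cko mice. Ighm, the heavy chain gene of IgM, had 106, 139 and 146 normalized counts in controls against 304, 400.2 and 733 in Tlx3cko mice. So the light chain was lower and the heavy chain higher in every Tlx3cko library than in every control. The log2 fold changes were -2.48 for Igkc (SE 0.61, adjusted p = 0.0384) and 1.88 for Ighm (SE 0.27, adjusted p = 0.00116), both by edgeR's quasi-likelihood test, Benjamini-Hochberg adjusted. Ighm lost its call in 1 of the 14 alternatives, against control replicate 3 alone (adjusted p = 0.0692 in the same edgeR test, range 1.71e-30 to 0.0692), where its log2 fold change was 1.72. Igkc lost it in 6 of 14, with adjusted p of 0.086, 0.112 and 0.0855 without control replicates 1, 2 and 3, 0.0522 and 0.132 without Tlx3cko replicates 2 and 3, and 0.314 against control replicate 3 alone, in the same edgeR test (range 5.24e-06 to 0.314). Over the 14 alternatives its log2 fold change was between -3.71 and -1.97. The B cell surface genes Ms4a1 and Cd22 had 0 counts in all Tlx3cko libraries, against 23, 2 and 4 and 6, 6 and 7 counts in control replicates 1, 2 and 3, and neither passed the threshold (adjusted p = 0.0926 and 0.0641 in the same edgeR test). These 2 genes were chosen after their values were seen. Of the 10 further B cell genes tested, 7 had log2 fold changes below 0 and 3 above 0, namely Pax5 (0.02), Vpreb3 (0.66) and Ighm.

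The neutrophil genes S100a8 and S100a9, whose products form calprotectin, did not separate by genotype. S100a8 had 219, 166 and 73.4 normalized counts in control replicates 1, 2 and 3 and 15.4, 26.2 and 120.1 in Tlx3cko replicates 1, 2 and 3. S100a9 had 314, 345 and 144 in controls against 47.2, 27.6 and 193 in Tlx3cko mice. In both genes Tlx3cko replicates 1 and 2 were the lowest libraries, Tlx3cko replicate 3 lay above control replicate 3, and control replicates 1 and 2 were the highest. The log2 fold changes were -1.47 for S100a8 (SE 0.57, adjusted p = 0.225) and -1.55 for S100a9 (SE 0.51, adjusted p = 0.132), both by edgeR's quasi-likelihood test, Benjamini-Hochberg adjusted. Against control replicate 3 alone they were -0.43 and -0.67. Without Tlx3cko replicate 3 they were -2.89 and -2.80, with adjusted p of 0.00424 and 0.00129 in the same edgeR test, and the ranges over the alternatives were 8.12e-08 to 0.913 and 8.65e-14 to 0.811.

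The same order of libraries ran through other neutrophil genes. Of 16 further genes, among them those for the granule proteins Ngp, Camp, Ltf and Mpo, 15 were tested and 0 passed the threshold in edgeR, with 7 at an unadjusted p under 0.05. All 15 had negative log2 fold changes, between -2.53 and -0.59. Over these 15 and the S100 genes together, Tlx3cko replicates 1 and 2 were below the other 4 libraries in 15 of 17 genes, Tlx3cko replicate 3 was above control replicate 3 in 16, and control replicates 1 and 2 were above control replicate 3 in 16. Camp had the smallest p, with 145, 127 and 40 counts in controls against 8, 3 and 41 in Tlx3cko mice (adjusted p = 0.0501 by edgeR's quasi-likelihood test, Benjamini-Hochberg adjusted). Ngp was the most abundant of the 16 per kb (363 normalized counts per kb in control DRGs), and Stfa1 was at 0 in all libraries. Summed over the 16 genes, control replicates held 131%, 127% and 42.7% of the control mean and Tlx3cko replicates 20.8%, 12.6% and 83.7%. Control replicate 3 thus differed from the other controls here, and in sex it matched the Tlx3cko mice. Lyz2, Ptprc, Cd68 and Itgam are expressed by neutrophils as well as macrophages, and the part of neutrophils in their values was not tested. In the sums of class I and class II genes Tlx3cko replicate 3 was below all controls, unlike in the neutrophil genes.

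**Figure D3:**
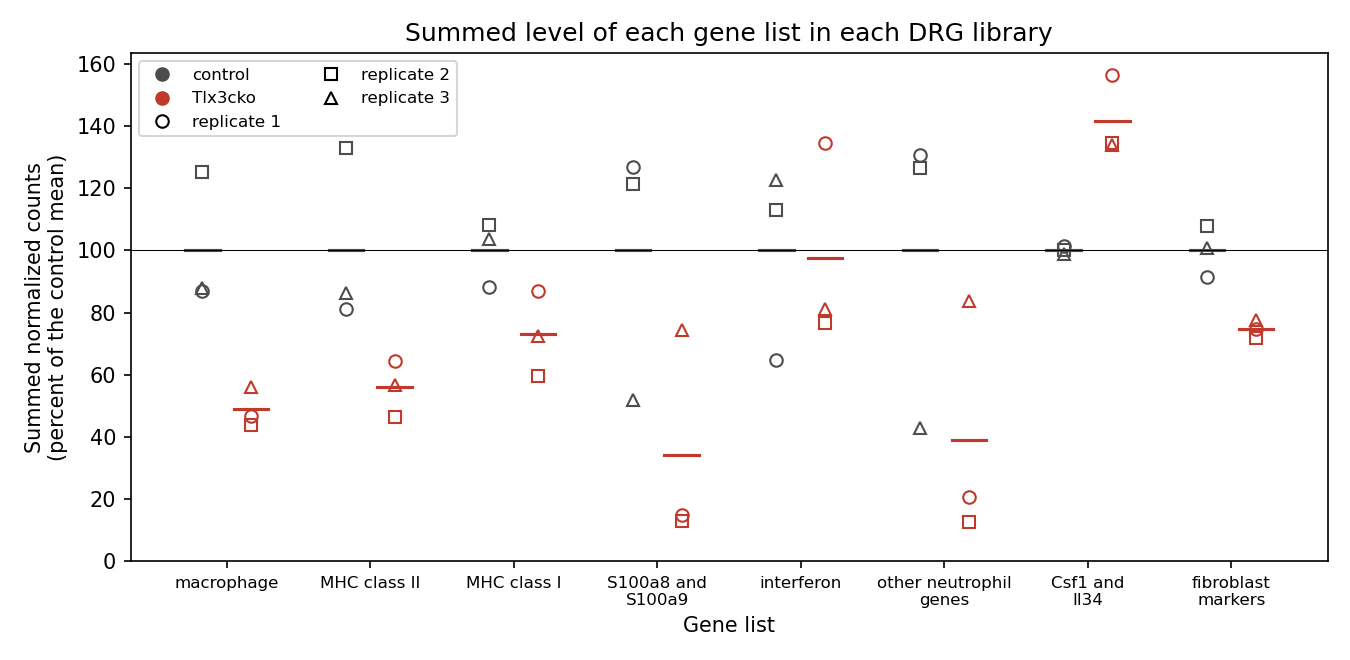
Summed normalized counts of 8 gene lists in each library, as a percentage of the mean of the 3 controls (y axis), with 1 symbol per replicate and a line at each group mean. The sums of macrophage, MHC class II, MHC class I and fibroblast genes are lower in every Tlx3cko library than in every control. The sum of Csf1 and Il34 is higher in every Tlx3cko library. In the neutrophil lists Tlx3cko replicate 3 lies above control replicate 3. Ly86 holds 1497 of the control mean of 3277 normalized counts in the macrophage sum.

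Mast cell genes, which also belong to the leukocytes of the ganglion, were represented by 9 further genes, of which 7 were tested, 1 was lower and 0 were higher past the threshold. Ms4a2, the beta chain gene of the IgE receptor, had 6, 9 and 18 counts in control and 0 in each Tlx3cko library. Against a limit of 3 counts per library its level in Tlx3cko DRGs was at least 3.05-fold lower (adjusted p = 0.0257 by edgeR's quasi-likelihood test, Benjamini-Hochberg adjusted), a bound that covers counting error only. Leaving out control replicate 2 or 3 or any Tlx3cko library ended this call, with adjusted p between 0.0606 and 0.0946 in the same edgeR test. The call was also lost with the replicate number as a block (0.0605 in the same edgeR test) and against control replicate 3 alone (log2 fold change -6.88). Of the 14 alternatives, 12 gave an adjusted p for Ms4a2, in a range of 0.00106 to 0.0946. With filterByExpr the gene was not tested, and DESeq2 gave it no adjusted p. Kit was the most abundant of the 9 per kb (126 normalized counts per kb in control DRGs), with a log2 fold change of -0.36 (SE 0.10, adjusted p = 0.0571 in the same edgeR test). Which cells of the ganglion hold the Kit transcripts was not tested.

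None of the 3 listed interferon-induced genes passed the threshold. Irf7, a transcription factor of the interferon response, had 79.9, 82.8 and 71.8 normalized counts in controls against 109, 65.6 and 97.4 in Tlx3cko mice. Ifit1 and Ifit3, which encode antiviral proteins that bind RNA, were spread widely within each group. Ifit1 had 88.5, 209 and 282 in controls against 218.5, 155 and 136 in Tlx3cko mice, and Ifit3 had 102, 180 and 158 in controls against 235, 99.7 and 105 in Tlx3cko mice. The groups overlapped in all 3 genes, with log2 fold changes of 0.22, -0.20 and 0.01 and SEs of 0.23, 0.32 and 0.31. This held in edgeR and DESeq2, and 0 had an unadjusted p under 0.05 in edgeR. Of 30 further interferon-induced genes, all tested, 1 was lower and 0 were higher past the threshold, and the median log2 fold change of the 30 was -0.15. Ifi27l2a, a small mitochondrial protein gene, was the one that was lower, with 30.2, 47.9 and 65.4 normalized counts in controls against 18.3, 13.1 and 16.7 in Tlx3cko mice. These did not overlap (log2 fold change -1.57, SE 0.37, adjusted p = 0.0303 by edgeR's quasi-likelihood test, Benjamini-Hochberg adjusted), but the call was kept in only 7 of the 14 alternatives, with adjusted p from 0.00224 to 0.169 and log2 fold changes from -2.01 to -1.27. It was lost with limma-voom (0.072), with the replicate number as a block (0.0519) and, in the edgeR test with Benjamini-Hochberg adjustment, without control replicate 2 (0.0952), control replicate 3 (0.169) or Tlx3cko replicate 1 (0.0599), 2 (0.126) or 3 (0.0946). Ifi27 was the most abundant per kb (1725 normalized counts per kb in control DRGs) and had a log2 fold change of -0.04. The interferon-stimulated response element, searched on both strands as GAAA, any 2 bases and GAAA again, was present in the promoter entries of 1079 of 27025 genes (3.99%) and of 5 of the 32 listed genes with an entry, namely Ifit1, Ifit3, B2m, Ctss and Aif1.

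Over all 193 identifiers of these 12 further lists, 160 were tested and 7 were lower and 2 higher past the threshold, beside 2.56% and 1.69% of all genes. DESeq2 called 12 of them, where it called 1149 of all genes, and limma-voom 8, where it called 855, beside 851 in edgeR. Among the 10 listed genes of MHC class I and class II, 5 were lower and 0 higher in edgeR.

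Markers of other cells of the ganglion were read in the same libraries. Satellite glia markers had 0 of 6 genes past the threshold in edgeR, with 2 at an unadjusted p under 0.05. The satellite glia sums, led by Apoe, were 89.8%, 110% and 100.1% in control and 119%, 108% and 106% in Tlx3cko libraries. Endothelial markers had 1 of 6 higher, Pecam1, with sums of 110%, 100.1% and 89.8% in controls against 119%, 132% and 124% in Tlx3cko mice and Cldn5 the most abundant. Pecam1 (log2 fold change 0.66, adjusted p = 0.0202 by edgeR's quasi-likelihood test, Benjamini-Hochberg adjusted) lost its call without control replicate 3 (0.0823), without Tlx3cko replicate 2 (0.0991) or 3 (0.0952) and against control replicate 3 alone (0.0588), in a range of 0.00187 to 0.0991, with log2 fold changes between 0.57 and 0.84 over the alternatives. Blood markers, led by Hba-a1, had 0 of 5 past the threshold in edgeR with 1 at an unadjusted p under 0.05, and their sums were 143%, 55.0% and 102% in control and 69.1%, 65.3% and 88.5% in Tlx3cko libraries.

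Skeletal muscle markers had 1 of 6 higher, Myh4, and their sums, led by Acta1, were 225%, 63.4% and 11.5% in control and 351%, 303% and 187% in Tlx3cko libraries. Myh4 (log2 fold change 2.87, adjusted p = 0.0101 by edgeR's quasi-likelihood test, Benjamini-Hochberg adjusted) lost its call without control replicate 2 (0.0611) and in DESeq2 (0.0639), in a range of 8.15e-87 to 0.0639, with log2 fold changes between 2.31 and 5.62 over the alternatives. Adipocyte and spinal cord markers were low, with 0 of 5 and 0 of 4 genes tested past the threshold in edgeR and 0 at an unadjusted p under 0.05. The adipocyte sums were between 2.95 and 44.9 normalized counts per library, led by Cfd, and the spinal cord sums between 126 and 307, led by Aqp4, with the oligodendrocyte gene Mog at 1 or 2 counts in each library. The part of these other cells in the results was not tested.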

How the data were processed

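The counts per gene were made by the authors and are used here as deposited. Their processing notes name STAR 2.5.2a and mm10 without giving roles. The counting program and strand setting are not given in the sources used here. The study's methods name the NEBNext Ultra RNA kit, which does not mark strand. The table's 208 loci without an annotated identifier were kept (0.199% to 0.269% of counts). Genes with at least 10 counts in total were scaled with TMM factors and fitted with edgeR 4.0.16 in R 4.3.3. Each SE was derived from the test, as the absolute log2 fold change divided by the square root of the F statistic. Alternatives used limma 3.58.1 and DESeq2 1.42.0. GENCODE M21 gave symbols, positions and exon lengths, and blastn 2.17.0+ found sequence shared with other genes. Besides the listed genes, the text names related genes past the threshold and, in each further list, the one with the smallest p, the most abundant per kb and those defining genes at 0. Some results that this rule covers are not reported here. The listed genes and lists were chosen with earlier results of these data known. The scripts were tested on simulated data.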

Additional observations from a re-analysis of the deposited data

How the results depend on the processing

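The alternatives were 6 leave-one-out fits, DESeq2's size factors, upper quartile factors, filterByExpr, no filter, DESeq2, limma-voom, the replicate number as a block and control replicate 3 alone, whose fit takes its spread from the Tlx3cko libraries. Of 578 values for listed genes, 40 reversed in sign, 19 lost the call made with all libraries and 14 gained a call. A lost or gained call does not mean a smaller or larger log2 fold change. The 6 genes past the threshold never reversed. Where the cause is not given by fewer samples or genes, the cause was not tested.

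Past the threshold were 851 genes, 6 listed genes (all lower) and 9 related genes. Against control replicate 3 alone these were 546, 2 (2 lower) and 4. Without a filter they were 1529, 13 (13 lower) and 28. Over the leave-one-out fits they ranged from 488 to 938, 2 to 8 (2 to 8 lower) and 5 to 16. Leaving out the filter moved the adjusted p far more than the log2 fold change. For Myh4 these were 8.15e-87 and 2.868 without a filter, against 0.0101 and 2.870 with it (edgeR's quasi-likelihood test, Benjamini-Hochberg adjusted). For Xist, spread widely among controls, the adjusted p was 4.32e-121 against 0.0101 in the same edgeR test. Low ends of ranges from the fit without a filter therefore add no weight to a call.

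Against control replicate 3 alone these log2 fold changes reversed: Ptprc 0.365, Cd68 0.301, Csf1r 0.004, Cd163 -0.016, Fcer1g 0.287, Fcgr1 0.297, C3 0.128, Tap1 0.250, Tap2 0.098, Ccl2 0.154, Cd3e -0.602, Cd79a 0.812 and Ifit3 -0.097. With limma-voom Cd3e was -0.806 and Ifit3 -0.053. With the replicate number as a block Cd3e was -0.348 and Ifit3 -0.073. Replicate numbers do not pair the samples: correlations of changes within numbers were -0.134, -0.00952 and -0.116 over 13373 genes.

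In the leave-one-out fits reversals gave these ranges: Cd68 -1.260 to 0.019, Aif1 -1.970 to 0.287, Cd163 -0.176 to 0.254, Cd14 -0.155 to 0.700, Fcgr1 -1.435 to 0.079, C1qb -0.365 to 0.121, Ciita -0.071 to 0.087, Tap1 -0.395 to 0.181, Tap2 -0.175 to 0.114, Ccl2 -0.779 to 0.188, Cd3e -2.541 to 0.669, Cd79a -0.649 to 0.171, Ifit1 -0.537 to 0.185 and Ifit3 -0.514 to 0.223.

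With 3 mice per group, sex unbalanced between groups, whole ganglia and no cell counts, these results are limited to RNA levels. Genes with few counts, such as Cd3e, Cd4 and Itgax, gave wide errors at this depth.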
